A study of Mus musculus with 9 samples.

Results

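The 10 genes described here carry out autophagy, the process by which a cell wraps part of its own contents in a membrane and digests it in lysosomes, and mitophagy, its form that removes mitochondria. They were listed by name, with earlier results of these data known: Map1lc3a, Map1lc3b, Gabarap, Gabarapl1, Gabarapl2, Sqstm1, Bnip3l, Becn1, Ulk1 and Tfeb. All 10 were found among the 52550 gene identifiers of the count table. Expression data came from 9 RNA sequencing libraries made from haematopoietic stem cells of mice, the marrow cells from which the blood lineages arise. The old KO group holds 3 libraries from mice aged 22 to 24 months with the genotype B6N.129S6-Sphk2tm1Rlp/J, which the labels also call Sphk2 cKO without naming a Cre driver, and Sphk2 encodes sphingosine kinase 2. The old WT group holds 3 libraries from wild-type mice aged 22 to 24 months, and the young WT group holds 3 libraries from wild-type mice aged 2 months. All libraries came from 1000 sorted cells that were lineage-negative, positive for Sca1, c-Kit and CD150, and negative for CD48. The labels speak of technical replicates and name no animals, so the p-values measure the spread between these libraries, which may be technical.

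Formation of an autophagosome starts with the ULK1 kinase, goes on with a lipid kinase complex that contains Beclin 1 (Becn1), and ends with the coupling of small ubiquitin-like proteins of the ATG8 family to the growing membrane. Cargo receptors such as p62 (Sqstm1) and the mitochondrial protein NIX (Bnip3l) bind both the cargo and the ATG8 proteins, and the transcription factor TFEB drives genes of lysosomes and autophagy. In mice, stem cells that lack autophagy genes have been described to accumulate mitochondria and to lose self-renewal.

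The libraries differed widely in depth and in how far transcripts rose above stray reads. Counts in genes ranged between 11284847 and 17544945 in old KO, 3145167 and 5115003 in old WT, and 28088637 and 74021822 in young WT libraries. A background was measured per library from exons of olfactory receptor genes, a family silent in blood. It lay between 5.65 and 7.41 reads per kb in old KO, 5.69 and 10.6 in old WT, and 1.17 and 1.48 in young WT. To be called above background, a gene needed 20 or more counts in that library and 5 or more times this density. By that rule 2862 to 4142 protein-coding genes were above background in old KO libraries, 630 to 1088 in old WT and 7352 to 8082 in young WT. Of 8 markers of long-term stem cells, 7 were above background in at least 2 old KO libraries, 0 in old WT and 7 in young WT. Their summed CPM (a count divided by its library's total over genes and scaled up equally) was 1198 to 2410 in old KO, 173 to 1904 in old WT and 1015 to 1405 in young WT. Sphk2, the targeted gene, had 12, 23 and 8 counts in old KO, 20, 1 and 35 in old WT, and 1684, 88 and 576 in young WT libraries. Its old KO and old WT counts were all below the rule's density, so it did not check the genotype labels. In bulk libraries, fewer cells with a transcript and less RNA per cell cannot be told apart.

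The ATG8 family was read above background in all 3 old KO and all 3 young WT libraries for each of its 5 members, and in old WT for Gabarap and Gabarapl1 in 2 libraries each. Map1lc3a (ENSMUSG00000027602, chromosome 2, 155276297 to 155278073, mm10) encodes a form of LC3, the protein most used to trace autophagosomes. It had 532, 1109 and 842 counts in old KO libraries, 7, 7 and 10 in old WT, and 5137, 682 and 1321 in young WT. As CPM these were 39.5, 98.3 and 48.0 in old KO, 1.37, 2.23 and 2.90 in old WT, and 69.4, 24.3 and 42.6 in young WT. Every old WT library was near the stray-read level, where its exons would collect 6.72 to 12.5 counts, and the old WT range did not overlap either of the others.

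Map1lc3b (ENSMUSG00000031812, chromosome 8, 121590361 to 121598760), the other LC3 gene here, had the most counts of the 10 genes in young WT libraries. It had 4840, 7652 and 13261 counts in old KO, 226, 78 and 188 in old WT, and 28192, 10646 and 16210 in young WT. Scaled to depth these were 360, 678 and 756 CPM in old KO, 44.2, 24.8 and 54.5 CPM in old WT, and 381, 379 and 522 CPM in young WT. Old KO and young WT ranges overlapped and old WT lay below both. The old WT counts were 1.82 to 2.97 times the background, below the rule.

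Gabarap (ENSMUSG00000018567, chromosome 11, 69991143 to 69994951) belongs to the GABARAP branch of the family, which acts in autophagosome closure and binds many receptors. Its counts were 12277, 6522 and 2476 in old KO, 291, 25 and 3195 in old WT, and 13767, 5151 and 4165 in young WT. Its CPM were 912, 578 and 141 in old KO, 56.9, 7.95 and 927 in old WT, and 186, 183 and 134 in young WT. Old WT library 3 was the highest of all 9 libraries and old WT library 2 the lowest, a ratio of 117, while the young WT libraries differed by a ratio of 1.39. All pairs of groups overlapped.

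Gabarapl1 (ENSMUSG00000030161, chromosome 6, 129533160 to 129542346), a second GABARAP-like gene, was uneven in every group. It had 3729, 4855 and 89 counts in old KO libraries (277, 430 and 5.07 CPM), 161, 799 and 39 in old WT (31.5, 254 and 11.3 CPM), and 450, 3192 and 7205 in young WT (6.08, 114 and 232 CPM). The highest library exceeded the lowest by ratios of 84.8 in old KO, 22.5 in old WT and 38.2 in young WT, and all groups overlapped. Gabarapl2 (ENSMUSG00000031950, chromosome 8, 111940703 to 111953612), also called GATE-16, had 252, 2127 and 1269 counts in old KO (18.7, 188 and 72.3 CPM), 13, 8 and 15 in old WT (2.54, 2.54 and 4.35 CPM), and 1247, 1116 and 440 in young WT (16.8, 39.7 and 14.2 CPM). Its old WT counts were 0.552 to 0.609 times the background, below both other groups without overlap, while old KO and young WT overlapped.

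Summed over the 5 genes, the ATG8 family reached 1607, 1973 and 1022 CPM in old KO libraries, 136, 292 and 1000 CPM in old WT, and 659, 740 and 946 CPM in young WT. All old KO sums were above all others, but the highest old WT sum came from Gabarap in library 3, which held 96.7% of that library's family level per kb of exon. In old WT library 2 Gabarapl1 held 92.3%. The leading gene held 40.0% to 68.5% in old KO and 38.5% to 45.7% in young WT libraries.

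**Figure D1:**
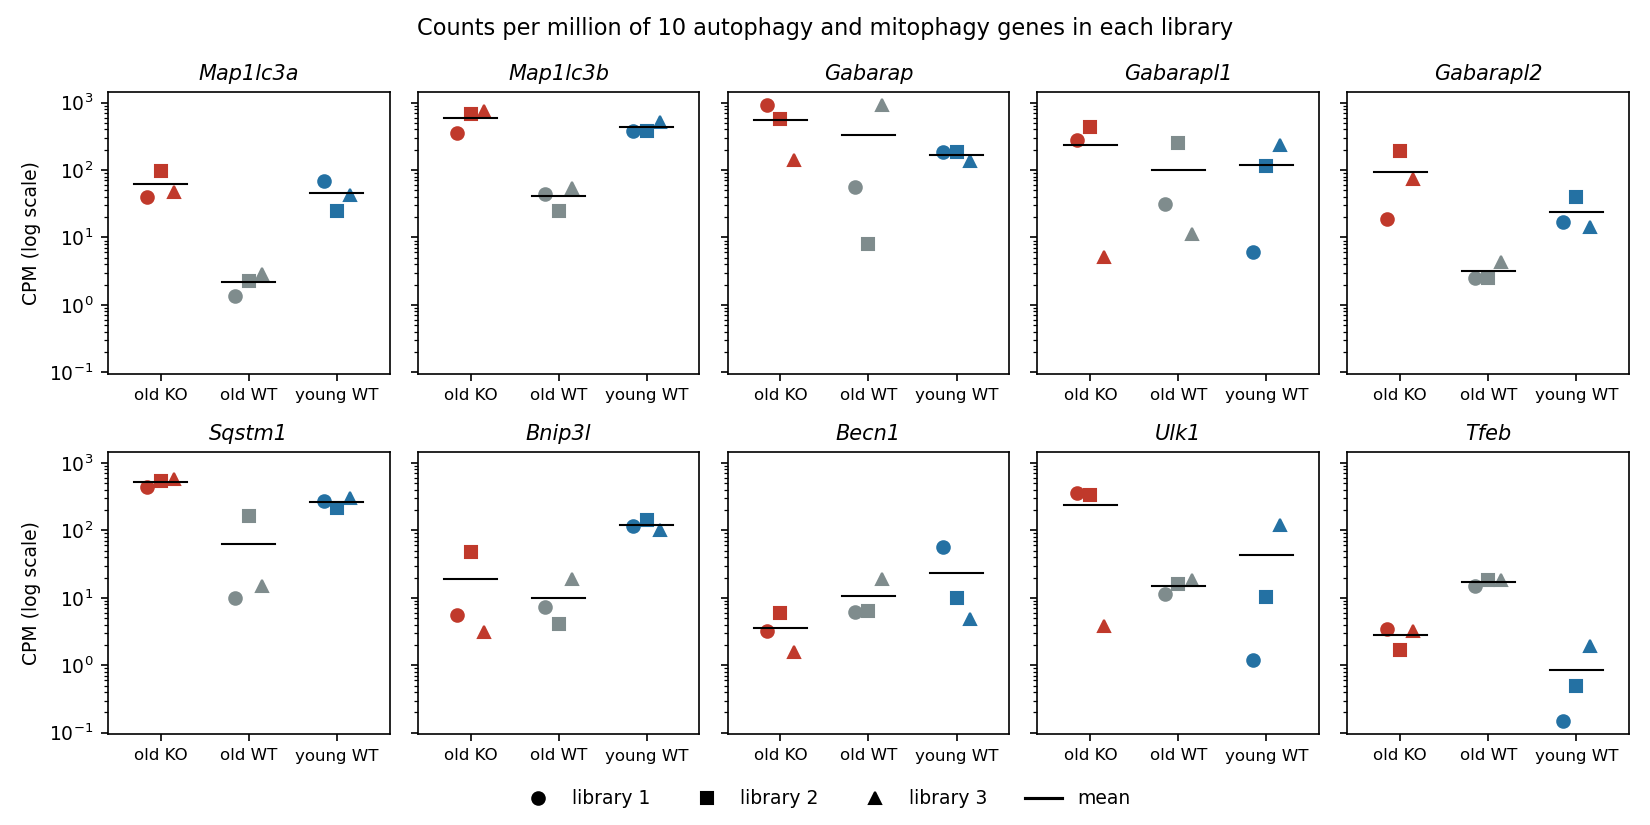
CPM of the 10 genes on a log scale, with a point for each library (symbol by library number) and a line for the group mean, in old KO, old WT and young WT stem cells. Map1lc3a, Map1lc3b and Gabarapl2 show all old WT points below the other groups, whereas the old WT points of Gabarap and Gabarapl1 overlap those of both other groups.

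Among the cargo receptors, Sqstm1 was high and even in old KO and young WT, and Bnip3l was high in young WT alone. Sqstm1 (ENSMUSG00000015837, chromosome 11, 50199366 to 50210827) encodes p62, which links ubiquitin-tagged cargo to ATG8 proteins and is itself degraded with it. It had 5929, 6076 and 10164 counts in old KO, 50, 519 and 51 in old WT, and 19977, 5952 and 9355 in young WT. In CPM these were 441, 538 and 579 in old KO, 9.78, 165 and 14.8 in old WT, and 270, 212 and 301 in young WT. The 3 groups did not overlap: old KO was the highest and old WT the lowest. Within old WT, library 2 was at 27.2 times the background and the other libraries at 1.43 and 1.47 times, so 1 library carried the old WT mean of 63.2 ± 88.2 CPM (SD, n = 3).

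Bnip3l (ENSMUSG00000022051, chromosome 14, 66985239 to 67008877) encodes NIX, a receptor of the outer mitochondrial membrane that is known for the clearance of mitochondria from maturing red cells. It had 76, 541 and 55 counts in old KO, 37, 13 and 65 in old WT, and 8730, 3999 and 3134 in young WT. The CPM were 5.65, 47.9 and 3.13 in old KO, 7.23, 4.13 and 18.9 in old WT, and 118, 142 and 101 in young WT. Both old groups lay below young WT without overlap and overlapped each other, and of the 6 old libraries old KO library 2 alone was above background. Markers of erythroid cells moved in the same direction: of 8 listed, 0 were above background in at least 2 old KO libraries, 0 in old WT and 6 in young WT, with summed CPM of 4.90 to 61.5 in old KO, 14.3 to 21.2 in old WT and 65.8 to 447 in young WT. Hba-a2 had 0 counts in all old KO libraries. Their part in the Bnip3l result was not tested.

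The promoters of Map1lc3b, Gabarapl2 and Sqstm1 are shown because these genes shared the pattern of an old WT range below both other groups. Map1lc3a had the same pattern. Sequences are those of RefSeq on GRCm38.p6, read 5′ to 3′ on the strand of the gene, and end at the RefSeq or GENCODE start of the gene, whichever comes first. Capitals mark the GC box.
Map1lc3b, chr8:121590188-121590360, plus strand: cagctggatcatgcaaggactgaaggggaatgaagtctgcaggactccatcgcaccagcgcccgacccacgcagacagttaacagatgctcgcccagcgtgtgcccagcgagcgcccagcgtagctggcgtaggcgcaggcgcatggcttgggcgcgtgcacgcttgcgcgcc
Gabarapl2, chr8:111940453-111940702, plus strand: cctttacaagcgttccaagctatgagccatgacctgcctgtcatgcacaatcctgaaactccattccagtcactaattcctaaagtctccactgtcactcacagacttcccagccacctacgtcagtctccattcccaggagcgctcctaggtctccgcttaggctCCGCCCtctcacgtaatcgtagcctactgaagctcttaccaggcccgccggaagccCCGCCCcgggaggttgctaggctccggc
Sqstm1, chr11:50210828-50211070, minus strand: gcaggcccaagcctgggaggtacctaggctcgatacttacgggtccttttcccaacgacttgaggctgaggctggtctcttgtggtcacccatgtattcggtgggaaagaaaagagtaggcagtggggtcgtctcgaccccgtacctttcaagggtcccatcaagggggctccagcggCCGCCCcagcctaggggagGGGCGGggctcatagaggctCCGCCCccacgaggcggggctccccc
The GC box (GGGCGG on either strand), a site bound by Sp-family factors, occurred 2 times in the Gabarapl2 stretch, 3 times in that of Sqstm1 and 0 times in that of Map1lc3b. Windows of 250 bases before the RefSeq start were found for 7 of the 10 genes, with 3 alternative starts for Tfeb. Of these 9 windows 8, all but that of Gabarap, held a GC box, as did 32.7% of all 32851 mouse windows. The Map1lc3b window held 1, which lies past the GENCODE start and so outside the stretch shown. The E-box CACGTG, the core of the sites that TFEB binds, occurred in 0 of the 9 windows and in 6.02% of all windows. The AP-1 site TGANTCA (6.75% of all windows), the antioxidant response element TGACNNNGC (10.2%) and the FOXO site GTAAACA (3.17%) also occurred in 0 of the 9. Both strands were searched, and overlapping matches were counted.

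Becn1, Ulk1 and Tfeb, which start and control the process, were near background in most old libraries. Becn1 (ENSMUSG00000035086, chromosome 11, 101285952 to 101302286) encodes Beclin 1 of the lipid kinase complex. It had 43, 68 and 28 counts in old KO libraries, 32, 20 and 65 in old WT, and 4144, 284 and 149 in young WT. In CPM these were 3.20, 6.03 and 1.60 in old KO, 6.26, 6.36 and 18.9 in old WT, and 56.0, 10.1 and 4.80 in young WT. No old library was above background, the young WT libraries differed by a ratio of 11.7, and old KO lay below old WT by CPM without overlap at a level where both can be stray reads.

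Ulk1 (ENSMUSG00000029512, chromosome 5, 110784488 to 110810097) encodes the kinase that starts autophagy. It had 4904, 3774 and 66 counts in old KO, 59, 50 and 63 in old WT, and 90, 287 and 3667 in young WT. As CPM these were 364, 334 and 3.76 in old KO, 11.5, 15.9 and 18.3 in old WT, and 1.22, 10.2 and 118 in young WT. Thus old KO libraries 1 and 2 and young WT library 3 were high and the rest low, and all groups overlapped.

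Tfeb (ENSMUSG00000023990, chromosome 17, 47737030 to 47792419) had 46, 19 and 56 counts in old KO, 77, 58 and 64 in old WT, and 11, 14 and 59 in young WT. Its CPM were 3.42, 1.68 and 3.19 in old KO, 15.1, 18.4 and 18.6 in old WT, and 0.149, 0.498 and 1.90 in young WT. Old WT was the highest group by CPM, but its counts were 1.07 to 1.80 times the background, and of all 9 libraries young WT library 3 alone was above background. The Tfeb transcript was therefore not detectable above stray reads at this depth in either old group.

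**Figure D2:**
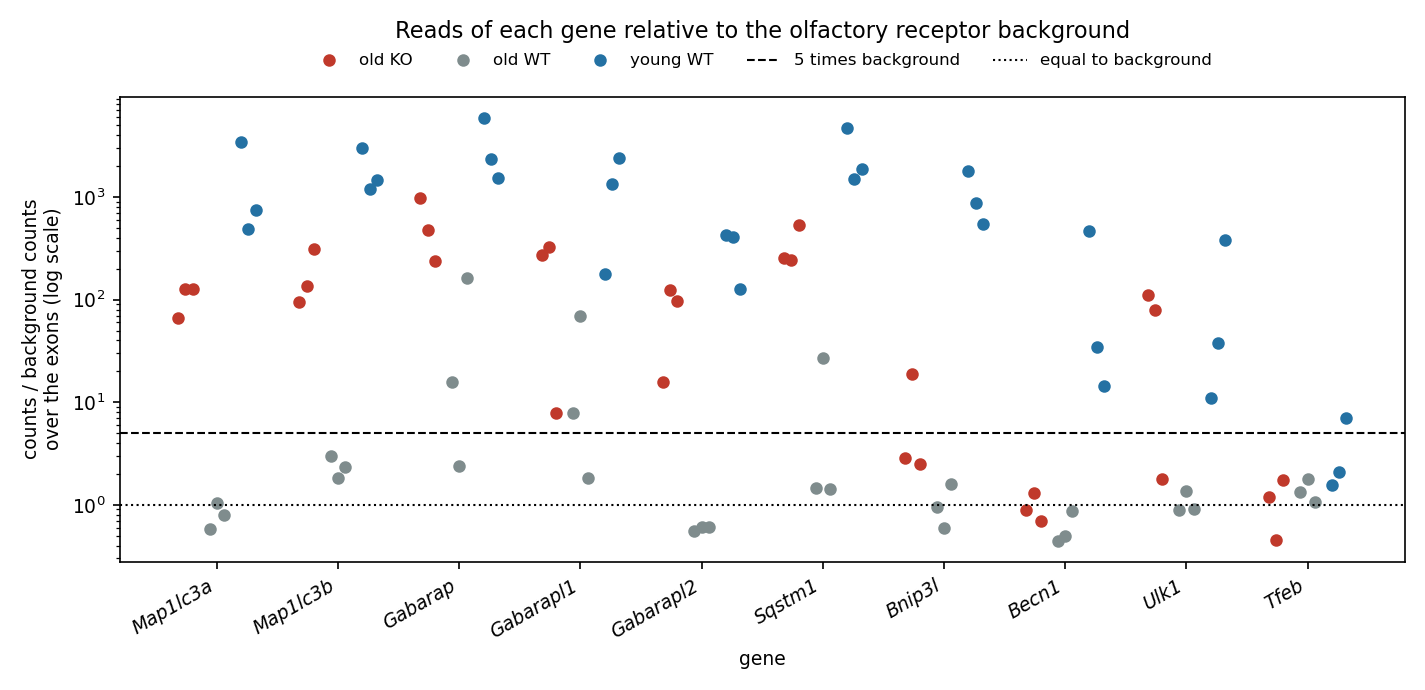
Counts of each gene divided by the background counts that its exons would collect in the same library, on a log scale, in old KO, old WT and young WT libraries. Dashed and dotted lines mark 5 times background and background itself; the old KO points of the 5 ATG8 genes and Sqstm1 all lie above the dashed line, and the old KO points of Becn1 and Tfeb all lie below it.

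Per library, 7, 8 and 6 of the 10 genes were above background in old KO, 2, 2 and 1 in old WT, and 9, 9 and 10 in young WT. In at least 2 libraries of a group they numbered 7 in old KO, 2 in old WT and 9 in young WT. Over all protein-coding genes the shares above background in at least 2 libraries were 12.4% in old KO, 1.93% in old WT and 35.2% in young WT. The young WT libraries were themselves uneven gene by gene: among 5385 protein-coding genes that passed the rule in each, the highest CPM was a median of 4.34 times the lowest, and 29.4% differed by over 10 times. Of the 9 members with this detection, Gabarapl1, Becn1 and Ulk1 differed by over 10 times, and Map1lc3b, Gabarap, Sqstm1 and Bnip3l by 1.38 to 1.42 times.

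Levels of different genes were compared as CPM per kb of exon. In young WT the order was Gabarap (91.0 ± 15.8), Sqstm1 (77.8 ± 13.5), Gabarapl1 (58.3 ± 56.2), Map1lc3b (56.9 ± 10.9), Map1lc3a (38.5 ± 19.2), Bnip3l (31.2 ± 5.39), Gabarapl2 (10.1 ± 6.04), Ulk1 (6.66 ± 10.03), Becn1 (3.34 ± 3.98) and Tfeb (0.150 ± 0.164; SD, n = 3). Neighbours overlapped except Bnip3l with Gabarapl2 and Becn1 with Tfeb. In old KO the order opened with Gabarap (295 ± 210), Sqstm1 (155 ± 21.2) and Gabarapl1 (118 ± 107), and all neighbours overlapped. Bnip3l came eighth there, at 4.90 ± 6.52, and Becn1 and Tfeb last, at 0.510 ± 0.318 and 0.488 ± 0.166. In old WT Gabarap led with 179 ± 280, and of the neighbours Map1lc3b (5.48 ± 2.01) and Tfeb (3.06 ± 0.351) alone were apart.

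Old KO set against old WT compares Sphk2 genotypes at the same age, but library depth and stray reads also differed between these groups. Counts outside genes were 45.0% to 61.9% of all counts in old KO and 80.8% to 87.7% in old WT. The part of genotype and of library quality in the differences was not tested. Both LC3 genes were higher in old KO: Map1lc3b averaged 598 ± 210 CPM in old KO, against 41.2 ± 15.1 CPM for old WT, and Map1lc3a 61.9 ± 31.8 CPM in old KO, against 2.17 ± 0.768 CPM for old WT (SD over 3 libraries). The log2 fold changes were 5.91 ± 1.10 (SE; adjusted p after Benjamini-Hochberg from edgeR's quasi-likelihood fit with TMM = 0.0338) and 6.70 ± 1.40 (adjusted p = 0.0483, same test). These were the 2 of 10 genes called, that is past an adjusted p of 0.05, against 0.457% of all 32582 genes tested and 2.56% of 5823 expressed genes, for calls of higher. Expressed genes are here those tested that passed the background rule in each young WT library. Picking them by their young WT counts favours calls of lower in the comparisons against young WT. With total counts as the scaling, which lowers the values of this comparison by a median of 1.90 over all genes, they were at 3.84 and 4.82 and neither was called. Of 9 runs that left out 1 library each, Map1lc3b was called in 2 (without old KO library 1 or 2) and Map1lc3a in 1 (without old KO library 1), with values between 5.35 and 6.26 for Map1lc3b and 6.53 and 6.99 for Map1lc3a. Among the fits with other tests, DESeq2 called 5 of the 10 genes and limma-voom 4, all higher, and both sets held the 2 LC3 genes. These tests also called more genes at large. DESeq2 called 2030 of 32582 tested genes and 1787 of 5823 expressed genes higher, and limma-voom 358 and 356, against 149 tested genes in the main fit.

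The other ATG8 genes and the remaining members did not pass. Gabarapl2 was at 6.74 ± 1.46 (SE, n = 3 each; adjusted p = 0.0552 in edgeR's quasi-likelihood test), Ulk1 at 5.60 ± 1.79 (adjusted p = 0.191) and Sqstm1 at 4.78 ± 1.34 (adjusted p = 0.140, same test for both). Gabarap, Bnip3l and Gabarapl1 were at 2.88 ± 1.33, 2.67 ± 1.18 and 2.63 ± 1.57, and Becn1 and Tfeb at 0.36 ± 1.26 and -0.66 ± 0.90. By CPM, the old KO range lay above old WT without overlap for Map1lc3a, Map1lc3b, Gabarapl2 and Sqstm1, against 1.91% of all tested genes and 10.2% of the expressed genes. It lay below for Becn1 and Tfeb, against 48.8% and 20.3%, and both genes were not above background in any library of either group. The median of the 10 fold changes was 3.83, beside -0.04 over all tested genes and 2.00 over the expressed genes.

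Old WT set against young WT compares ages in wild-type mice, but library depth and stray reads also differed between these groups. Counts outside genes were 80.8% to 87.7% of all counts in old WT and 6.51% to 12.5% in young WT. The part of age and of library quality in the differences was not tested. The TMM scaling factors were 3.20 to 5.45 in old WT and 0.172 to 0.331 in young WT libraries, so the fold changes differ from ratios of CPM. With these factors 7 of 10 genes were called lower in old WT, against 18.4% of all tested genes called lower and 80.4% of the expressed genes. Of the 10, 0 were called higher, against 18.6% of all tested and 0.0859% of the expressed genes. The members' count is close to the rate among expressed genes, a set that leaves out Tfeb. The LC3 genes Map1lc3a and Map1lc3b had log2 fold changes of -8.60 ± 1.51 and -7.46 ± 1.18 (SE, n = 3 each; adjusted p by edgeR's quasi-likelihood fit = 0.0053 and 0.0046). Bnip3l was at -7.77 ± 1.49 (10.1 ± 7.76 CPM in old WT and 120 ± 20.8 CPM in young WT, adjusted p = 0.0060) and Gabarapl2 at -6.85 ± 1.46 (3.14 ± 1.04 CPM in old WT and 23.6 ± 14.05 CPM in young WT, adjusted p = 0.0077, same test). These 4 genes were also called lower with total counts, at -4.37, -3.35, -3.55 and -2.88, and in each of the 9 runs without 1 library. All 12 old WT values of these 4 genes were below the background rule.

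Sqstm1, Becn1 and Ulk1 were called with TMM factors and not with total counts. Sqstm1 was at -5.88 ± 1.42 (SE, n = 3 each; edgeR quasi-likelihood adjusted p = 0.0113) and at -2.03 with total counts, and at -8.76 without old WT library 2. Becn1 was at -5.67 ± 1.53 (adjusted p = 0.0163, same test) and at -1.15 with total counts. It was not called without old WT library 1, 2 or 3 (-5.59, -5.67 and -6.13), and it was at -3.42 without young WT library 1. Ulk1 was at -5.43 ± 1.78 (adjusted p = 0.0310, same test) and at -1.48 with total counts, and it was not called without old WT library 1, 2 or 3 (-5.38, -5.70 and -5.38) or young WT library 3 (-2.39). Gabarap (-3.49 ± 1.37, adjusted p = 0.0546) and Gabarapl1 (-3.83 ± 1.66, adjusted p = 0.0740, same test) were not called, and Gabarap was called lower without old WT library 3 (-6.33). Tfeb was at 0.47 ± 0.91 and not called with TMM, and was called higher with total counts (4.37), the stricter filter (2.44) and thinning (3.54). Total counts raise the values of this comparison by a median of 3.92 over all genes. By CPM, the old WT range lay below young WT for Map1lc3a, Map1lc3b, Gabarapl2, Sqstm1 and Bnip3l, 5 of 10 against 5.87% of all tested genes and 32.8% of the expressed genes, and above it for Tfeb, 1 of 10 against 65.0% and 3.73%. The median fold change was -5.78, beside 1.37 over all tested genes and -5.37 over the expressed genes.

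Old KO set against young WT differs in both age and Sphk2 genotype, and library depth and stray reads also differed between these groups. Counts outside genes were 45.0% to 61.9% of all counts in old KO and 6.51% to 12.5% in young WT. The parts of age, genotype and library quality cannot be told apart here and were not tested. Among the 10 genes Bnip3l and Becn1 were called. Bnip3l averaged 18.9 ± 25.2 CPM in old KO and 120 ± 20.8 CPM in young WT (SD, n = 3 each), a log2 fold change of -5.09 ± 1.32 (SE; adjusted p by edgeR's quasi-likelihood fit = 0.0349). Becn1 averaged 3.61 ± 2.24 CPM in old KO and 23.6 ± 28.1 CPM in young WT, with overlapping ranges and a log2 fold change of -5.31 ± 1.51 (adjusted p = 0.0399, same test). The old KO counts of Becn1 were 0.702 to 1.30 times the background, and those of Bnip3l passed the background rule in library 2 alone. Bnip3l and Becn1 are 2 of 10 called lower, against 5.84% of all tested genes and 26.1% of the expressed genes, and 0 were called higher, against 6.91% and 0.0172%. With total counts, which raise the values of this comparison by a median of 2.01, they were at -2.67 and -2.71 and not called. Of 9 runs without 1 library, both genes kept the call in 2, without young WT library 2 or 3. In the other 7 runs Bnip3l lay between -6.89 and -4.73 and Becn1 between -5.78 and -3.03.

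For the other 8 genes the fold changes ran from -1.90 ± 1.12 for Map1lc3a to 0.17 ± 1.47 for Ulk1 and none was called. Map1lc3b was at -1.55 ± 0.91, Gabarapl1 at -1.20 ± 1.50, Sqstm1 at -1.11 ± 1.16, Gabarap at -0.61 ± 1.24, Tfeb at -0.19 ± 0.91 and Gabarapl2 at -0.11 ± 1.13 (SE, n = 3 each). By mean CPM 8 of the 10 genes were higher in old KO than in young WT, and with total counts the fold changes of all 8 were above 0, from 0.45 for Map1lc3a to 2.44 for Ulk1. For 7 of these 8, all but Ulk1, the sign of the change therefore depended on the scaling. Sqstm1 was the single member whose old KO range lay above young WT by CPM (519 ± 71.3 CPM in old KO and 261 ± 45.4 CPM in young WT), 1 of 10 against 53.5% of all tested genes and 3.49% of the expressed genes. Bnip3l was the single member below, 1 of 10 against 4.06% and 22.7%. The median of the 10 fold changes was -1.15, beside 1.20 over all tested genes and -2.77 over the expressed genes. The 3 comparisons share their groups and are not independent of each other.

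**Figure D3:**
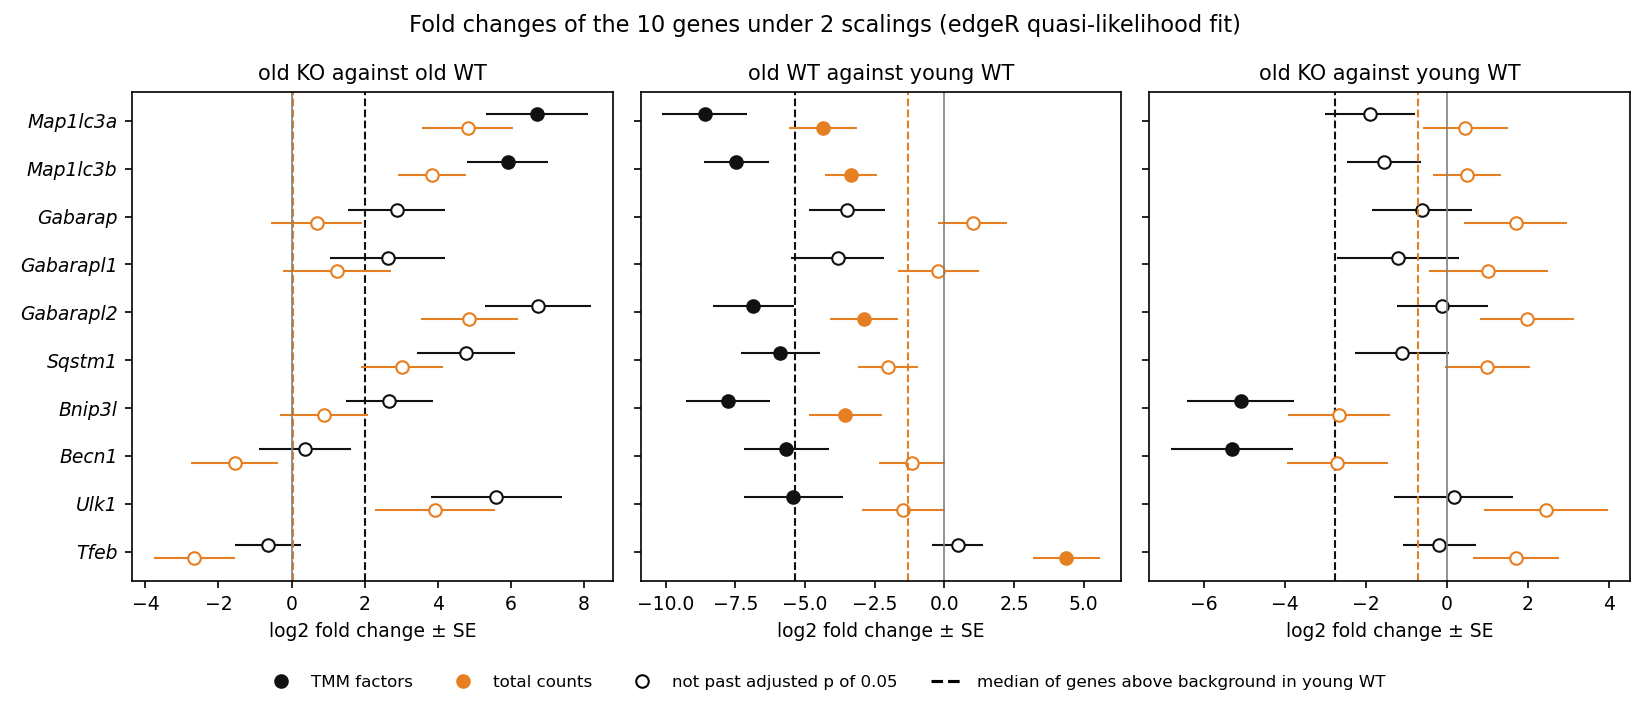
Log2 fold changes with SE of the 10 genes in old KO against old WT, old WT against young WT and old KO against young WT, with TMM factors (black) and with total counts (orange). Filled points passed an adjusted p of 0.05, and dashed lines mark the median of the 5823 expressed genes; the 2 filled black points in the first panel are Map1lc3a and Map1lc3b.

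A wider list of 83 autophagy genes, grouped by role and including the 10, was read in the same fits. In old KO against old WT, 3 of 83 were called higher, 0 lower and 80 were not called. The shares called higher were 0.457% of all tested genes and 2.56% of the expressed genes, and the list's median fold change was 1.61, beside -0.04 and 2.00. The additional gene was Vmp1, a membrane protein of the endoplasmic reticulum needed for autophagosome formation. Vmp1 had 322, 415 and 263 CPM in old KO, 14.5, 8.90 and 24.1 CPM in old WT, and 251, 290 and 489 CPM in young WT. Every old WT library was below the background rule for Vmp1. Between the old groups its log2 fold change was 6.36 ± 1.12 (SE; edgeR quasi-likelihood adjusted p = 0.0338), and 4.38 and not called with total counts. It was called in 2 of 9 runs without 1 library (without old KO library 1 or 2).

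In old WT against young WT, 46 of the 83 were called lower, 1 higher and 36 were not called. Lower calls made up 18.4% of all tested genes and 80.4% of the expressed genes, and the list's median was -4.38, beside 1.37 and -5.37. By role the lower calls were 3 of 5 ATG8 genes, 10 of 15 cargo and mitophagy receptors, 3 of 5 genes of the initiation complex, 5 of 8 of the lipid kinase complex, 10 of 21 of conjugation and membrane supply, 7 of 18 of the TFEB family and lysosome, and 8 of 11 of nutrient and stress control. The largest with CPM ranges apart, besides Map1lc3a, were Vmp1 (-8.54 ± 1.23), the mitophagy receptor gene Fkbp8 (-8.23 ± 1.55) and Atg101, a subunit of the ULK1 complex (-8.05 ± 1.80; SE, n = 3 each; edgeR quasi-likelihood adjusted p = 0.0039, 0.0058 and 0.0089). Vmp1, Fkbp8 and Atg101 were below the background rule in every old WT library. Atg9a, which encodes the membrane carrier ATG9A, was called higher (3.16 ± 1.11, adjusted p = 0.0387, same test) on 71, 73 and 28 counts in old WT and 0, 2 and 10 counts in young WT, and in no library was it above background. It was called in 1 of 9 runs without 1 library (5.23 without young WT library 3). Without old WT library 1, 2 or 3 the list's lower calls numbered 18, 19 and 18. Over all tested genes the lower calls of these runs were 2424, 2692 and 2075, against 5996 in the full fit. With total counts 13 of the list were lower and 10 higher. Of all 32582 tested genes 1116 were then lower and 22308 higher, and of the 5823 expressed genes 1097 and 116.

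In old KO against young WT, 11 of the 83 were called lower, 0 higher and 72 were not called. Over all tested genes 5.84% were called lower, and 26.1% over the expressed genes. The list's median was -2.19, beside 1.20 over all tested and -2.77 over the expressed genes. They were 3 of 15 receptors, 3 of 8 genes of the lipid kinase complex, 3 of 21 of conjugation and membrane supply, 1 of 18 of the TFEB family and lysosome, and 1 of 11 of nutrient and stress control. The largest with ranges apart were Prkaa1, a catalytic subunit of the AMP-activated kinase, Nrbf2 of the lipid kinase complex, and Atg4c, an ATG8 protease. Prkaa1 had 2.30, 2.92 and 0.228 CPM in old KO and 88.2, 53.7 and 150 CPM in young WT (-8.14 ± 1.48, SE, n = 3 each; edgeR quasi-likelihood adjusted p = 0.0298). Nrbf2 was at -7.66 ± 1.62 (adjusted p = 0.0298) and Atg4c at -7.05 ± 1.57 (adjusted p = 0.0308, same test). All of Prkaa1, Nrbf2 and Atg4c were also called with total counts (-5.74, -5.21 and -4.62), and each lost its call without old KO library 1, 2 or 3. Their old KO counts were below the background rule in every library. Without old KO library 1, 2 or 3 the list held 0 calls, without any 1 old WT library 3, and without young WT library 1 it held 4. Over all tested genes the calls were 0 without old KO library 1, 2 or 3. They were 849 to 1133 without 1 old WT library and 1821 without young WT library 1, against 4155 in the full fit. With total counts 5 of the list were lower and 9 higher. Of all 32582 tested genes 1277 were then lower and 17171 higher, and of the 5823 expressed genes 1002 and 64.

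Above background in all 3 old KO libraries were 5 of 5 ATG8 genes, 2 of 15 receptors (Sqstm1 and Fkbp8), 2 of 21 genes of conjugation and membrane supply (Wdr45b and Vmp1) and 7 of 18 of the TFEB family and lysosome. The 7 included the cathepsin genes Ctsb, Ctsd and Ctsl, whose products digest protein in lysosomes, and Lamp2, a lysosomal membrane protein. Of the initiation complex, the lipid kinase complex and nutrient control, 0 of 5, 0 of 8 and 0 of 11 were. Over the list this was 16 of 83 genes, and over all protein-coding genes 5.83%. In old WT 0 of the 83 genes reached this in all 3 libraries, against 0.981% of protein-coding genes. In young WT 4 of 5, 5 of 8 and 7 of 11 genes of the initiation complex, the lipid kinase complex and nutrient control did, and 50 of the 83 in all, against 24.7% of protein-coding genes.

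**Figure D4:**
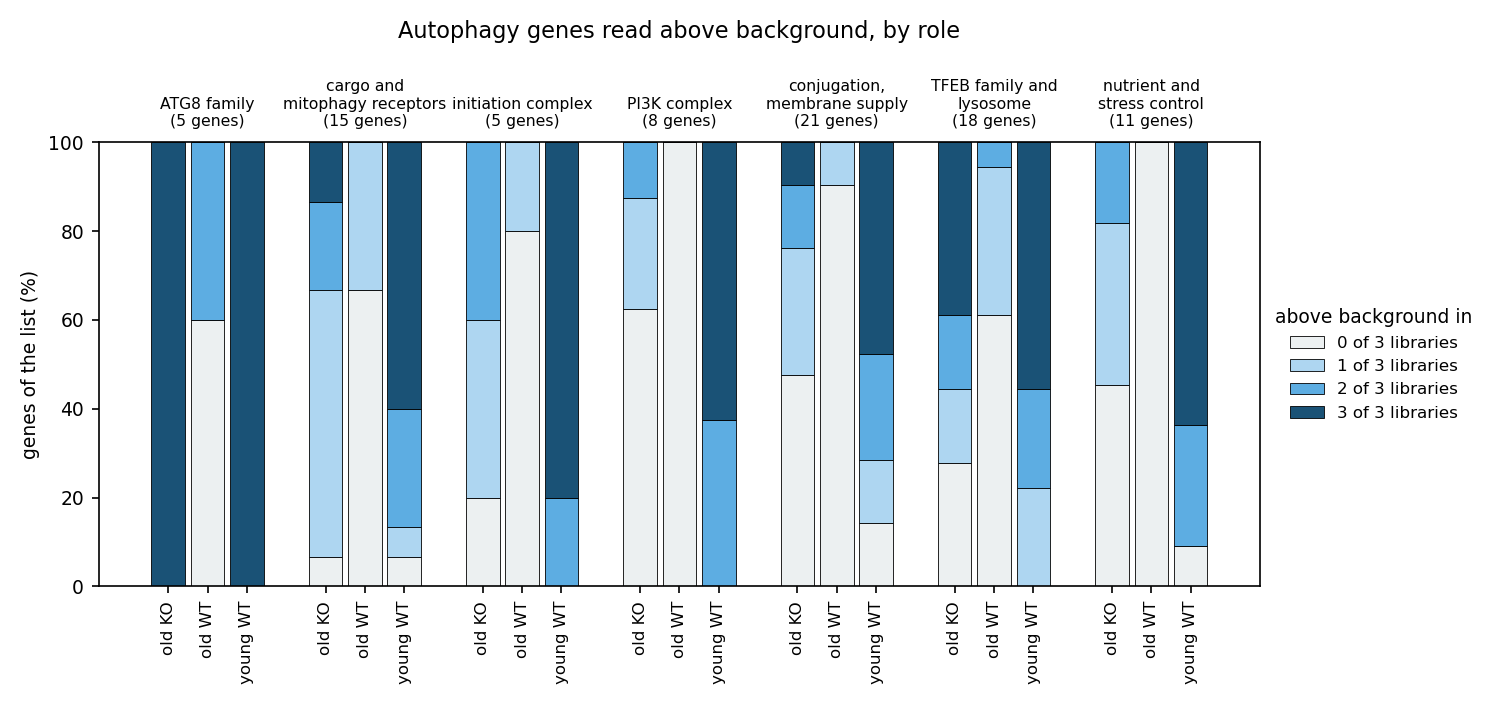
Share of each role's genes (%) read above background in 0, 1, 2 or 3 of the 3 libraries of old KO, old WT and young WT stem cells. In old KO the ATG8 family is dark to 100%, while the lipid kinase complex and nutrient control have 0 genes above background in all 3 libraries.

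Some counts could be shared with other genes, since the strand setting of the counting is not given in the sources used here. Becn1 shares 3104 exon bases with Cntd1 on the other strand, Sqstm1 580 with Mrnip, Gabarapl1 570 with 1700101I11Rik and Map1lc3b 58 with Zcchc14. These partners had 88, 125, 20 and 424 counts over all 9 libraries, against 4833, 58073, 20519 and 81293 for the members. Ambiguous reads are in neither set of counts, so the size of such a loss is unknown. The background of Becn1 was taken over all 7065 of its exon bases, with the shared ones included. Processed pseudogenes with at least 90% identity over at least 150 bases were found for Map1lc3b (5), Gabarapl2 (6) and Bnip3l (Bnip3l-ps, 99.4% over 1131 bases). Bnip3l-ps had 77 counts and Gm6055, the copy of Map1lc3b with 99.7% identity, 186 counts over all libraries, so reads split between copies make these genes' values uncertain by an unknown amount.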

How the data were processed

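The values are unnormalized gene counts, as the authors deposited them for each library. The submitters' processing notes name mm10, STAR 2.6.1d, HTSeq 0.10.0, Trim Galore 0.6.2 and also edgeR 3.24.3. Which annotation and strand setting were used is not given in the sources used here. Per the labels' protocols, cDNA from 1000 cells was amplified for 13 cycles and read as pairs of 150 bp. The 5 lines that name no gene stayed out. They include counts outside genes, 45.0% to 61.9% of all counts in old KO, 80.8% to 87.7% in old WT and 6.51% to 12.5% in young WT libraries, and ambiguous counts (0.619% to 5.48%).

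Symbols, coordinates and exon lengths came from GENCODE M21. Counts were fitted with edgeR 4.0.16 (quasi-likelihood F test, TMM, filterByExpr, all 9 libraries, 1 mean per group) in R 4.3.3, with Benjamini-Hochberg adjustment over 32582 genes at 0.05. The SE of a fold change was derived as its absolute value divided by the square root of F. The fit was run on simulated counts with the same profile in all groups apart from genes set to change. That check did not cover stray reads that differ between groups. Alternatives used DESeq2 1.42.0, limma 3.58.1, other scalings and filters, thinning, background subtraction, a replicate block and runs without 1 library. Background used 1122 olfactory receptor genes, leaving out the densest 1%.

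The genes, lists and tests were chosen with earlier results of these data known. All 10 members are named; of the wider list, up to 4 called genes per direction and comparison with the largest fold change, at least 10 CPM in the higher group and ranges apart, and other genes were named after their values were seen. Same-numbered libraries did not pair: correlations of their deviations from group means lay between -0.02 and 0.04.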

Additional observations from a re-analysis of the deposited data

How the results depend on the processing

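Of 597 fold changes of the 10 genes under other settings, 458 kept their direction and side of the threshold, 75 lost a call, 18 gained one and 46 turned sign. Of 120 counts of called genes, 52 stayed within 1.5 times. In old WT against young WT, the members called numbered 0 after background subtraction (7 as reported), and 5 to 7 without 1 library. Over all tested genes, background subtraction called 12 of 8575, against 12056 of 32582 as reported, and the runs without 1 library 3695 to 11412. The 83-gene list had 23 calls with total counts, 29 with a stricter filter, 21 after thinning, 0 after background subtraction and 28 with the replicate block (47 as reported), and 18 to 49 without 1 library. Calls over all tested genes were 23424 of 32582 with total counts, 9150 of 15143 with the stricter filter and 10846 of 19021 after thinning. The replicate block called 7072 of 32582. In old KO against old WT, 2 members were reported, 0 were called with total counts, RLE or upper-quartile factors, background subtraction, the 6 compared libraries alone or the replicate block, 5 by DESeq2 and 4 by limma-voom, and 0 to 3 without 1 library. Of 32582 tested genes total counts, RLE, upper-quartile factors and the replicate block called 2 each, DESeq2 2181, limma-voom 375 and the reported fit 149. Background subtraction called 15 of 8575, the compared libraries alone 0 of 27824, and the runs without 1 library 0 to 185. In the edgeR quasi-likelihood fit with the reported settings 7 of the 10 had an unadjusted p under 0.05. The share of all genes under that threshold was not counted, so the 7 do not set these genes apart from others. The list's 3 calls became 0 with the same scalings, background subtraction, the compared libraries alone and the replicate block, 21 by DESeq2, 7 by limma-voom, 5 with no filter, 5 with the stricter filter, and 0 to 6 without 1 library. No filter called 271 of all 49385 tested genes and the stricter filter 256 of 15143. In old KO against young WT, the 2 members became 0 with total counts, background subtraction or the replicate block, 1 with the stricter filter, 1 with the compared libraries alone, 4 by DESeq2, and 0 to 2 without 1 library. Total counts called 18448 of 32582 tested genes, background subtraction 4 of 8575 and the replicate block 0 of 32582. The stricter filter called 6999 of 15143, the compared libraries alone 3887 of 22789 and DESeq2 9154 of 32582, against 4155 as reported. Runs without 1 library called 0 to 4482. The list's 11 became 34 by DESeq2, 17 after thinning (14 higher and 3 lower), 6 with the compared libraries alone, 0 after background subtraction, 0 with the replicate block, and 0 to 13 without 1 library. Thinning called 9462 of all 19021 tested genes higher and 358 lower. The causes were not tested, except that the block and the left-out libraries leave fewer degrees of freedom by construction.

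Signs turned as follows, each by log2 fold change. In old WT against young WT, Gabarap was at 1.01 with total counts, 0.10 after thinning and 1.56 after background subtraction, Gabarapl1 at 0.35 after background subtraction, and Tfeb between -0.058 and 1.82 without 1 library. In old KO against old WT, Becn1 was at -1.56 with total counts. In old KO against young WT with total counts, Map1lc3a was at 0.45, Map1lc3b 0.49, Gabarap 1.70, Gabarapl1 1.02, Gabarapl2 1.99, Sqstm1 1.00 and Tfeb 1.71. After thinning they were at 1.56, 1.75, 2.81, 1.80, 3.28, 2.28 and 2.88 in the same order, with Gabarapl2 and Tfeb called higher. After background subtraction the first 6 were at 0.96, 1.10, 2.34, 1.77, 2.68 and 1.59, none called. With the stricter filter Map1lc3b was at 0.26, Gabarap 1.31, Gabarapl1 0.66, Gabarapl2 1.78, Sqstm1 0.72 and Tfeb 1.57. With upper-quartile factors Gabarapl2 was at 0.14 and Tfeb at 0.088, with the compared libraries alone Gabarapl2 at 0.21 and Tfeb at 0.18, and Tfeb at 0.20 by limma-voom and 0.11 with the replicate block. Without 1 library Gabarapl2 lay between -0.79 and 0.30, Ulk1 between -0.46 and 3.25 and Tfeb between -0.68 and 1.20.

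Tfeb was not kept after background subtraction and has no value there. Depth limits what the old WT libraries can show: 3 counts are 0.587 to 0.954 CPM there, 0.171 to 0.266 in old KO and 0.0405 to 0.107 in young WT, and counts cover counting error only, since PCR copies were not marked by molecular identifiers.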
